A study of Eutrema salsugineum with 2 samples.

Results

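Genes with near-equal and moderately high read numbers in the Yukon (YK) and Shandong (SH) accessions of Eutrema salsugineum, a salt-tolerant crucifer, are described here, among them Actin2 (Thhalv10020906m.g), which served as internal reference in the quantitative real-time PCR of the study. They were chosen from the deposited read counts: an annotated gene (an ID starting with Thhalv) was taken when it had at least 200 and fewer than 500 reads in both libraries together and a log2 ratio of YK to SH reads, after adding 0.5 to both counts, no larger than 0.15 in size. This gave 117 stable genes, which are 23.6% of the 496 annotated genes in that read window and 0.660% of all 17731 annotated genes in a table of 17888 loci. The measured reads and their ratio chose these genes, so both are given below as a description, without a test. In each accession 1 library was sequenced, and every interval printed here covers counting error only.

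The YK plants, which the labels describe as larger, thinner-leaved and more drought tolerant, and the SH plants, described as smaller, thicker-leaved and less drought tolerant, were grown in subirrigated tubes with a 12 h photoperiod, at 22 °C by day and 20 °C by night. Whole rosettes aged 4 weeks were taken at mid-night and pooled from 5 plants, and polyadenylated RNA was read by pyrosequencing with no record of the strand. The methods describe 4 biological replicates, whereas the table holds 1 column of reads per accession, so no spread between plants can be given. Seed came from selfed individuals. Reads of both accessions were aligned to a genome sequence of SH, so a YK allele that differs from it could lose reads. The libraries held 431705 reads on genes in YK and 482275 in SH. None of 8 leaf marker genes could be looked up by name here, so the labelled tissue was not checked.

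Actin is the protein of the thin filaments of the cytoskeleton, which carry organelle movement and guide cell growth. Actin2 is the actin gene of vegetative organs that is most often used in Arabidopsis thaliana as an internal reference, because its transcript is abundant in leaves and roots. In quantitative PCR the threshold cycle of the reference is subtracted from that of the target, so any difference of the reference between samples is passed on to every target with the opposite sign.

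Actin2 had 210 reads in YK and 228 reads in SH. Its log2 ratio of YK to SH was -0.12, with a 95% interval of -0.40 to 0.16, so the difference was within counting error. At these read numbers the ratio limit ensures this for all 117 stable genes, so it is no finding about Actin2. The sign of its ratio depends on the scaling of the libraries, as described further on. Actin2 lies on scaffold 13 from 2791899 to 2794552 (Phytozome v9.1 genome), a span of 2654 bp. By reads it ranked 8 among the 117 stable genes. By reads per kb of locus span it ranked 45 among them, with 79.1 reads per kb in YK and 85.9 in SH. Spans include introns, so this corrects only roughly for the length that reads can fall on. The closest locus with reads, Thhalv10021236m.g at 421 bp, had no reads in YK and 6 in SH. None of the 8 loci with reads within 20 kb of Actin2 was called different between the libraries. A call required 10 reads, a Benjamini-Hochberg adjusted exact binomial p below 0.05 and a log2 ratio no smaller than 1 in size. Of the loci near Actin2, Thhalv10021236m.g, Thhalv10022284m.g and Thhalv10021473m.g had fewer than 10 reads in both libraries together and could not be called. Thhalv10020495m.g had 5 reads in YK and 19 in SH, with a log2 ratio of -1.83 (adjusted p = 0.0629, exact binomial test).

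The stable genes lay on both sides of equality. Reads ranged from 98 to 259 in YK, with a median of 133, and from 96 to 259 in SH, with a median of 138. In RPM, reads scaled to 1000000 reads on genes, the levels ran from 227 to 600 RPM in YK and from 199.1 to 537.0 RPM in SH. YK had more reads for 47 genes, SH had more for 67, and 3 genes had equal reads. The median log2 ratio was -0.02, against -0.08 over the 496 genes of the read window, and the quartiles were -0.09 and 0.05. Together the 117 genes held 17180 YK reads and 17389 SH reads, which are 3.98% of the YK library and 3.61% of the SH library. None was called by the test above, which the ratio limit alone already decides; among all genes tested, 664 of 10036 were called, or 6.62%, of which 2.74% of the tested genes were higher in YK and 3.88% higher in SH.

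**Figure D1:**
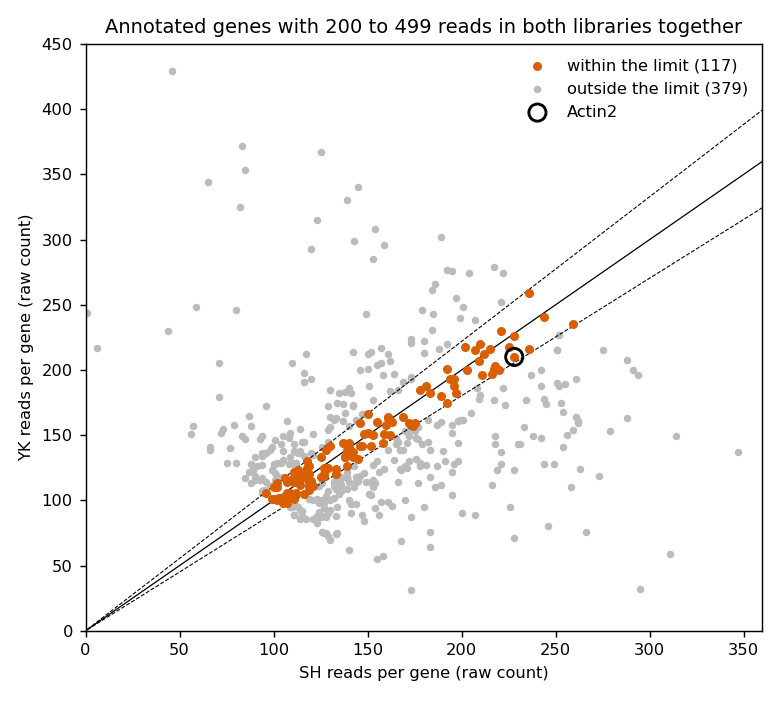
YK reads (vertical axis) against SH reads (horizontal axis) of the 496 annotated genes with at least 200 and fewer than 500 reads in both libraries together; the solid line marks equal reads and the dashed lines the ratio limit. The 117 stable genes (orange) lie between the dashed lines by the way they were chosen, Actin2 is circled near the upper end, and the 379 other genes (grey) reach as far as 1 read in SH.

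The 3 genes with equal reads were Thhalv10008944m.g with 212 reads in YK and 212 in SH, Thhalv10019318m.g with 139 and 139, and Thhalv10014614m.g with 101 and 101. No function was at hand for them here. The most abundant stable genes were Thhalv10026006m.g, with 259 reads in YK and 236 in SH, and Thhalv10017455m.g, with 235 in YK and 259 in SH. These genes leaned in opposite directions, both close to the limit. The least abundant was Thhalv10009056m.g, with 101 reads in YK and 99 in SH. It was followed by a tie at 202 reads in all of Thhalv10014614m.g, Thhalv10003302m.g, with 106 in YK and 96 in SH, and Thhalv10016963m.g, with 100 in YK and 102 in SH.

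At the lower edge of the ratio limit, Thhalv10010591m.g (157 reads in YK, 174 in SH, log2 ratio -0.148) lay just inside and Thhalv10006062m.g (227 reads in YK, 252 in SH, log2 ratio -0.150) just outside. At the upper edge, Thhalv10018739m.g (113 reads in YK, 102 in SH, log2 ratio 0.147) was inside and Thhalv10016917m.g (185 reads in YK, 166 in SH, log2 ratio 0.156) outside. At the edges of the read window, Thhalv10017408m.g (96 reads in YK, 100 in SH) and Thhalv10008377m.g (252 reads in YK, 250 in SH) were left out for 196 and 502 reads in all. The genes on either side of each edge are therefore alike in their reads, and the set has no natural border.

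The depth sets how narrowly stability can be stated. The 95% interval of a stable gene's log2 ratio was 0.52 to 0.83 wide, with a median width of 0.71, so for 0 of the 117 genes did the whole interval lie inside the limit of 0.15. All 117 intervals stayed inside 1 log2 unit, with a lowest bound of -0.54 (Thhalv10026423m.g, 101 reads in YK and 111 in SH) and a highest of 0.56 (Thhalv10003302m.g). For each of these genes taken alone, counting error thus leaves room for a difference above the limit and below 2-fold. The read window and the ratio limit fix both counts, 0 and 117, in advance. The intervals take no account of the choice by ratio or of variation between plants, which 1 library per accession cannot show.

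Near-equal reads were not particular to this read window. The share of annotated genes within the same ratio limit was 10.7% of the 3369 genes with at least 10 and fewer than 20 reads, 17.0% of those with fewer than 50, 22.0% of those with fewer than 100 and 21.1% of those with fewer than 200. It was 23.6% in the window used here and 25.6% of the genes with 500 or more and fewer than 1000 reads. It was 16.5% among the 91 genes with 1000 reads or more. Counting intervals widen as reads become few, so these shares cannot be compared between classes as differences of expression. Within the window, 46.4% of the genes had a log2 ratio of at most 0.3 in size and 91.1% of at most 1.

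**Figure D2:**
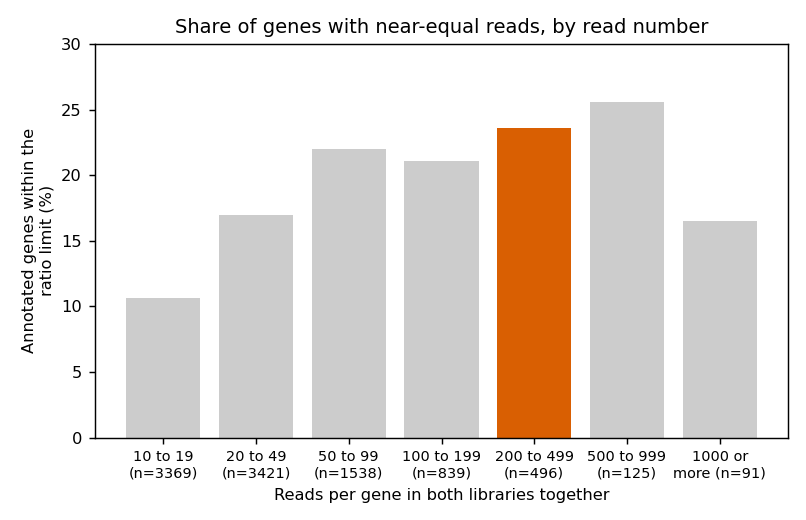
Percentage of annotated genes whose log2 ratio of YK to SH reads is at most 0.15 in size (vertical axis), by reads per gene in both libraries together (horizontal axis, n is the number of genes). The bar of the read window used here (orange) stands at 23.6%, between 21.1% in the next lower and 25.6% in the next higher class.

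The scaling of the libraries shifts every gene by the same amount and so changes which genes count as stable. Reads were compared as deposited, because both size factors by the median of ratios equalled 1. That median runs over every gene with reads in both libraries, without a read filter. Among all 17731 annotated genes, 1658 had equal reads, and the median was 6 reads per gene in each library. Factors of 1 therefore do not show that the libraries balance in the read window, where the median log2 ratio was -0.08. Scaling by library totals adds 0.16 to each log2 ratio, since SH had more reads in all. Under it the 117 genes ran from 0.01 to 0.31 with a median of 0.14, all of them on the YK side, and 65 of the 117 stayed within the limit. Another 67 annotated genes of the window came within it, for a total of 132. Actin2 had a log2 ratio of 0.04 under library totals, so its sign turned while it stayed within the limit. Library totals were the only scaling tried that gave it a positive ratio. Leaving the 5 most abundant genes of each library out of the totals lowered the shift from 0.16 to 0.06. Actin2 then had a log2 ratio of -0.06. With the TMM factors of edgeR, which lower every log2 ratio by 0.03, Actin2 had -0.14, 102 of the 117 genes stayed within the limit and 11 others came in.

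The difference between a stable gene and Actin2 is free of this choice, since scaling moves both alike. Relative to Actin2, the log2 ratios of the other 116 stable genes ran from -0.03 to 0.27 with a median of 0.10. For 100 of them the ratio was above that of Actin2 and for 16 below it, which places Actin2 at 17 of 117 from the SH side. Actin2 lies near the lower edge of the ratio limit, so the rule that chose the genes fixes both this range and the side on which most of them fall.

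The stable genes most like Actin2, by the distance of their log2 reads in YK and SH from those of Actin2, were within 0.1 log2 units in 6 cases. Thhalv10017144m.g had 218 reads in YK and 225 in SH, Thhalv10008767m.g had 216 in YK and 236 in SH, and Thhalv10018565m.g had 203 in YK and 218 in SH. Thhalv10016532m.g had 200 in YK and 220 in SH, and Thhalv10027395m.g had 216 in YK and 215 in SH. The last of the 6, Thhalv10003016m.g, had 201 reads in YK and 217 in SH and is the only one of them with a named hit here. With 2 libraries such likeness rests on 2 values per gene.

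A hit in A. thaliana was at hand for 12 of the 117 stable genes, because names were taken from the first 1998 of the 17888 rows of the study's gene list, and for 43 of the 379 other genes in the window. Functions below are those of the A. thaliana hits. Of these 12 genes, 2 had more reads in YK and 10 had more in SH, with log2 ratios from -0.15 to 0.13 and a median of -0.10. With library totals all 12 lay on the YK side, and 10 of the 12 stayed within the limit. To show how stable members sit among relatives of like abundance, 22 of the 55 window genes with a hit were sorted into 6 functional groups after their values were seen.

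**Figure D3:**
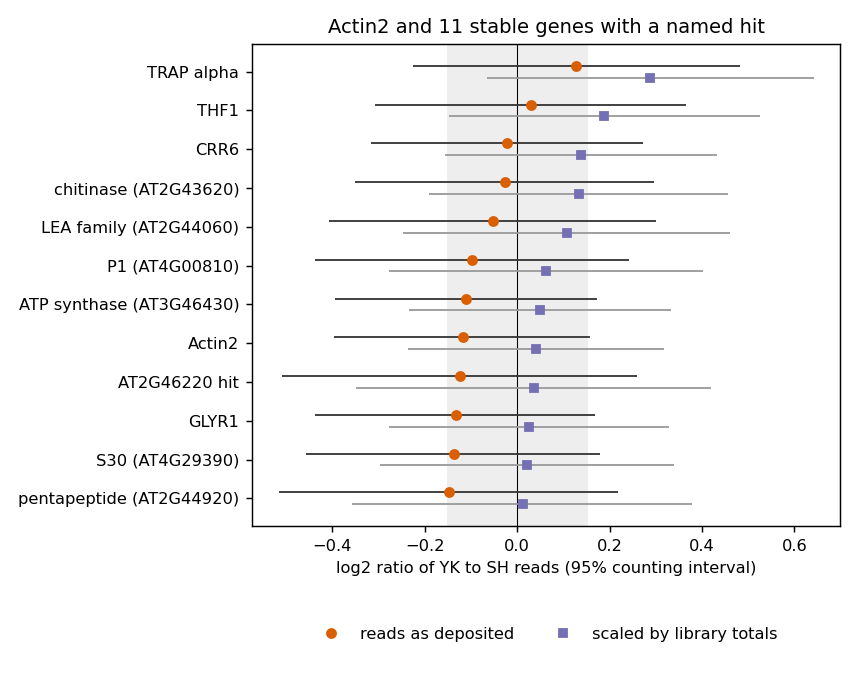
Log2 ratio of YK to SH reads (horizontal axis) of Actin2 and 11 stable genes with a named A. thaliana hit, from the reads as deposited (circles) and after scaling by library totals (squares), with 95% counting intervals (lines); the grey band is the ratio limit. Actin2 stands at -0.12 as deposited and at 0.04 with library totals.

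In the cytosolic ribosome 2 of 6 window genes with a hit were stable. The acidic stalk protein P1 gene with hit AT4G00810 (Thhalv10002126m.g), whose protein helps elongation factors bind, had 142 reads in YK and 152 in SH, with a log2 ratio of -0.10 (95% interval -0.44 to 0.24). The S30 gene with hit AT4G29390 (Thhalv10002144m.g, scaffold 12 between 10252908 and 10254150), for a small subunit protein, had 159 in YK and 175 in SH, with a log2 ratio of -0.14 (95% interval -0.46 to 0.18). Its neighbour at 2587 bp, the large subunit gene L28 with hit AT2G19730 (Thhalv10002093m.g), had 130 reads in YK and 172 in SH, with a log2 ratio of -0.40. UBQ6 (Thhalv10001668m.g), which encodes ubiquitin fused to a ribosomal protein, had 130 in YK and 191 in SH, at -0.55, and the L13a gene with hit AT3G24830 (Thhalv10002667m.g) had 188 in YK and 252 in SH, at -0.42. RPL5A (Thhalv10002621m.g) leaned the other way, with 220 reads in YK and 192 in SH, at 0.20. None of the 6 was called. Intervals that exclude equal reads were found for 19.2% of all genes tested, most of which had fewer reads than these. Within the read window, intervals included equal reads for 267 of the 496 genes, and for 3 of these 6. Of the 55 window genes with a hit, 12 had intervals wholly on the YK side and 12 wholly on the SH side.

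In the group named thylakoid and plastid membrane, which also holds genes for a lumen and a nucleoid protein, 3 of 5 window genes with a hit were stable. Over all window genes with a hit it was 12 of 55. CRR6 (Thhalv10001598m.g), which helps to assemble the chloroplast NADH dehydrogenase-like complex of cyclic electron flow, had 193 reads in YK and 196 in SH, with a log2 ratio of -0.02 (95% interval -0.32 to 0.27). THF1 (Thhalv10002049m.g), a factor of thylakoid formation, had 151 in YK and 148 in SH, with a log2 ratio of 0.03 (95% interval -0.31 to 0.37). The gene with hit AT2G44920 (Thhalv10001625m.g), for a pentapeptide repeat protein of the thylakoid lumen, had 120 in YK and 133 in SH, with a log2 ratio of -0.15, and sits at the edge of the limit. Both others had fewer reads in YK. TATC (Thhalv10000946m.g), a subunit of thylakoid protein import, had 114 in YK and 149 in SH. PTAC16 (Thhalv10002484m.g), a protein of the plastid nucleoid, had 101 in YK and 123 in SH.

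In the mitochondrial ATP synthase 1 of 2 window genes with a hit was stable. The gene with hit AT3G46430 (Thhalv10003016m.g), for a small subunit of the enzyme, had the reads close to Actin2 given above and a log2 ratio of -0.11 (interval -0.40 to 0.17). It has the shortest span of all 117 stable genes, 324 bp, and the highest reads per kb, 620 in YK and 670 in SH, against a median over the stable genes of 70.9 in YK and 70.2 in SH. Spans include introns, so reads per kb rank genes only roughly. MGP1 (Thhalv10000307m.g), another subunit, had 124 reads in YK and 159 in SH, with a log2 ratio of -0.36 (95% interval -0.71 to -0.01).

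In the entry of proteins into the endoplasmic reticulum and their folding there, 1 of 4 window genes with a hit was stable. All 4 had more reads in YK. The translocon-associated alpha subunit gene with hit AT2G21160 (Thhalv10000294m.g) had 142 reads in YK and 130 in SH, with a log2 ratio of 0.13 (95% interval -0.23 to 0.48), and under library totals its ratio of 0.29 left the limit. The signal peptidase subunit gene with hit AT2G22425 (Thhalv10000378m.g) had 279 in YK and 217 in SH, at 0.36. SDF2 (Thhalv10000317m.g), a factor of folding quality control, had 129 in YK and 75 in SH, at 0.78, and the protein disulfide isomerase PDIL2-1 (Thhalv10001515m.g) had 158 in YK and 79 in SH, at 1.00 (interval 0.60 to 1.41). The value of PDIL2-1 before rounding was just under the fold rule, so it was not called, and with library totals it was 1.16.

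**Figure D4:**
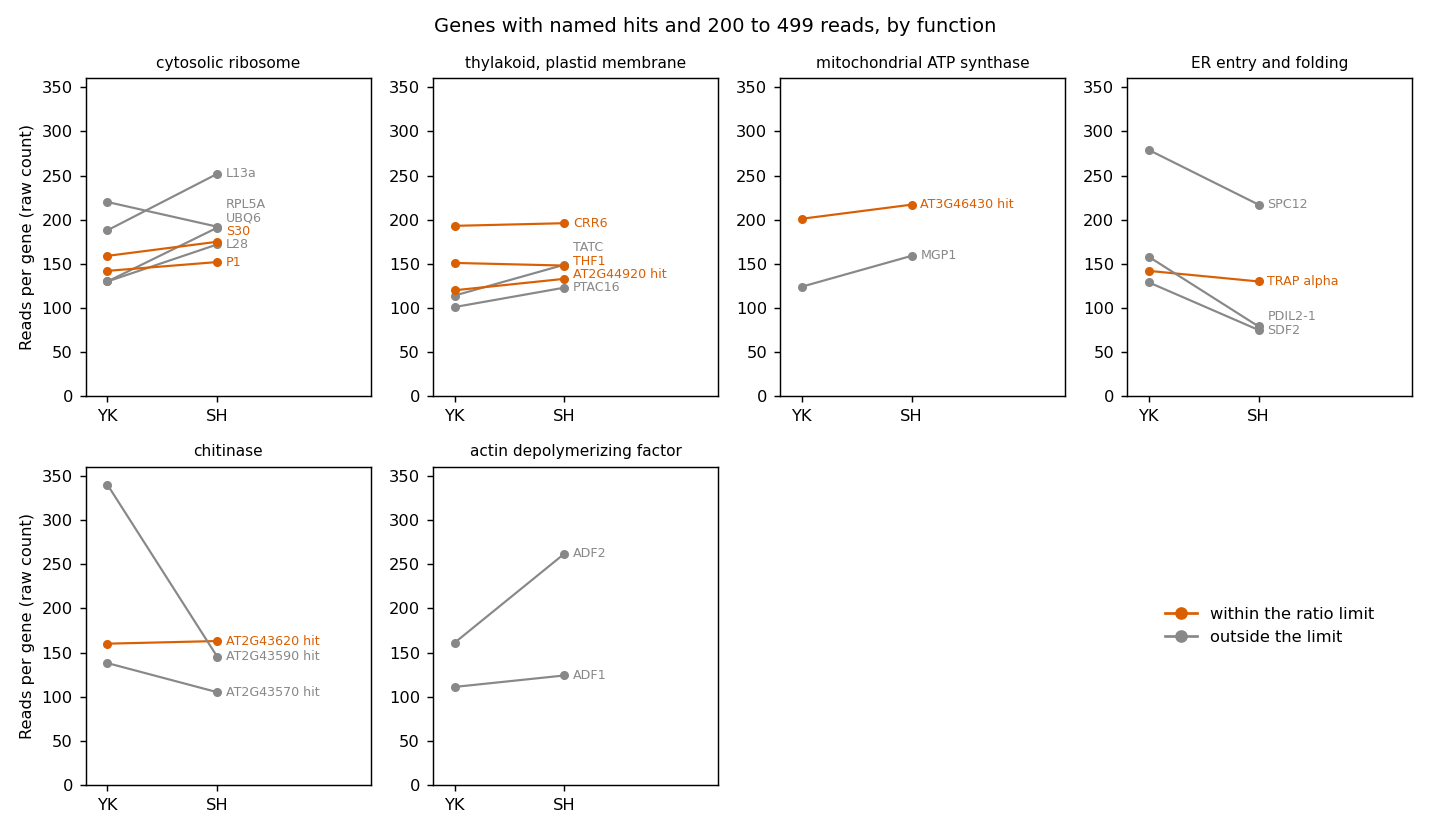
Reads per gene (vertical axis, raw counts) in YK (left) and SH (right) for the 22 window genes sorted into 6 groups by the function of their A. thaliana hit; each line is 1 gene, orange within the ratio limit and grey outside. The stable genes give nearly flat lines, while ADF2 (161 in YK, 262 in SH) and the chitinase gene with hit AT2G43590 (340 in YK, 145 in SH) are among the steepest.

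Of the genes that act on actin filaments, 3 of a list of 22 could be looked up, and none was among the stable genes. ADF1 (Thhalv10002704m.g), an actin depolymerizing factor that severs filaments, had 111 reads in YK and 124 in SH, with a log2 ratio of -0.16 (95% interval -0.54 to 0.22), just outside the limit, and with library totals its ratio of 0.00071 lay within it. ADF2 (Thhalv10002714m.g), a close relative 722 bp away on scaffold 4, had 161 in YK and 262 in SH, with a log2 ratio of -0.70 (95% interval -0.99 to -0.41). FH1 (Thhalv10002383m.g), a formin that nucleates filaments, had 3 in YK and 5 in SH, too few to compare. Reads were counted only where they mapped uniquely, so the split between ADF1 and ADF2 is uncertain if they share sequence. None of the 23 genes in a list of common quantitative PCR references could be looked up, so Actin2 cannot be set beside them.

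A further 3 stable genes with a hit fell in none of these groups. GLYR1 (Thhalv10002631m.g), a glyoxylate reductase that detoxifies reactive aldehydes, had 175 reads in YK and 192 in SH, with a log2 ratio of -0.13. The late embryogenesis abundant family gene with hit AT2G44060 (Thhalv10001537m.g) had 133 in YK and 138 in SH, at -0.05. The gene with hit AT2G46220 (Thhalv10001605m.g), with no function named here, had 111 in YK and 121 in SH, at -0.12.

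A stable gene of the chitinases, enzymes that cut the chitin of fungal cell walls, sat near relatives called higher in YK. The gene with hit AT2G43620 (Thhalv10001579m.g), on scaffold 22 between 166294 and 167544, had 160 reads in YK and 163 in SH, with a log2 ratio of -0.03 (95% interval -0.35 to 0.30). At 12271 bp, a gene with hit AT2G43590 (Thhalv10001652m.g) had 340 in YK and 145 in SH, at 1.23 (interval 0.95 to 1.52). At 15433 bp, Thhalv10001590m.g with the same hit had 102 in YK and 33 in SH, at 1.61. Both were called by the exact binomial test, with adjusted p = 5.44e-17 and 1.09e-07, which compares these 2 libraries and not the accessions. At 17568 bp, the gene with hit AT2G43570 (Thhalv10001575m.g) had 138 in YK and 105 in SH, at 0.39 (adjusted p = 0.223, exact binomial test), and was not called. The nearer relative with hit AT2G43600 (Thhalv10001788m.g, at 9199 bp) had 2 in YK and 3 in SH. On the other side, none of the 4 loci with reads within 20 kb was called, and they had at most 32 reads in YK and 19 in SH.

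The P1 gene Thhalv10002126m.g (scaffold 12 from 4070479 to 4071831) bordered a locus with reads only in YK. XLOC_005768, an assembled locus outside the annotation that starts 145 bp beyond its end, had 99 YK reads and 0 SH reads, which is at least 33-fold higher in YK against a floor of 3 reads (adjusted p = 7.20e-28, exact binomial test). No other locus with reads lay within 20 kb. The library kept no strand, so reads of the 2 loci are told apart only by position.

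**Figure D5:**
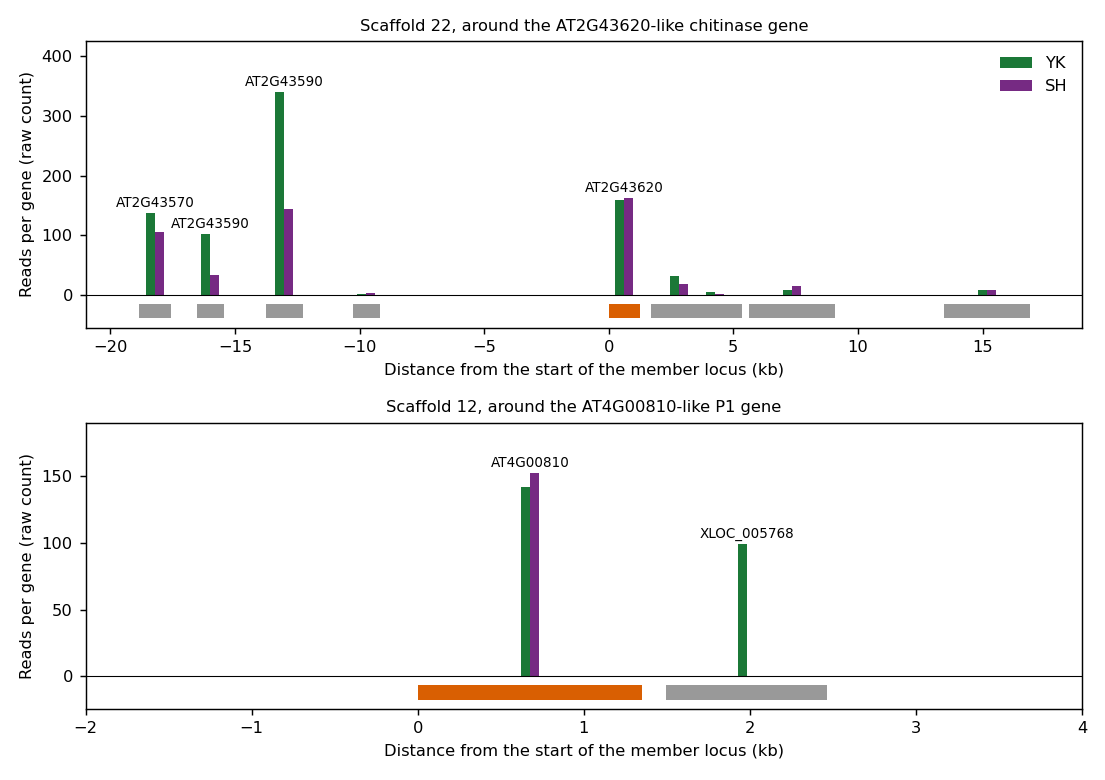
Reads per gene in YK (green) and SH (purple) on the vertical axis, by distance from the start of the stable gene on the horizontal axis (kb); blocks below the zero line are locus spans, orange for the stable gene and grey for other loci. The stable chitinase gene with hit AT2G43620 has 160 reads in YK and 163 in SH, 2 of its 8 neighbours were called higher in YK (both with hit AT2G43590), and the P1 gene with hit AT4G00810 has 142 reads in YK and 152 in SH beside a locus with 99 YK reads and 0 SH reads.

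Position and span were not used in choosing the genes. The 117 stable genes lay on 20 scaffolds, with 18 on scaffold 1, 13 on scaffold 10, 12 on scaffold 5 and 11, Actin2 included, on scaffold 13. A single pair lay within 10 kb of each other, Thhalv10017144m.g and Thhalv10017148m.g at 3818 bp, and Thhalv10017148m.g had 108 reads in YK and 119 in SH. The median span was 1918 bp for the stable genes, 1824 bp for the 379 other genes of the window and 2214 bp for all annotated genes. Spans of the stable genes ran from 324 to 5968 bp. The longest, Thhalv10022531m.g, had 152 reads in YK and 150 in SH, or 25.5 reads per kb in YK and 25.1 in SH.

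A called gene lay within 10 kb of 10 of the 117 stable genes, or 8.55%, and of 51 of the 379 others in the window, or 13.5%, given here without a test. Among these neighbours, Thhalv10017135m.g, 338 bp from Thhalv10016643m.g, had 31 reads in YK and 173 in SH, with a log2 ratio of -2.46 (95% interval -3.08 to -1.92), while the stable gene had 141 in YK and 140 in SH. In 6 stable genes the span overlapped that of another locus, but each overlapping locus had at most 11 reads in both libraries together, and Actin2 was not among them.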

How the data were processed

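Reads per gene were measured in 1 library per accession, YK and SH. The authors trimmed pyrosequencing reads, mapped them on the scaffolds of Phytozome v9.1 (GMAP in the methods, GSNAP v2012-11-27 in the submitters' processing notes), added loci assembled by Cufflinks, and used HTSeq v0.5.4p5 to count unique alignments, without strand. The deposited counts are raw reads; 1 blank row was left out. The deposited fold ratio and the deposited p-values are the authors' own comparison (DESeq v1.14.0) and were not used.

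Members followed the rule given in the Results. They, the gene lists and the functional groups were chosen with earlier results of these data known. Ratio intervals are 95% Clopper-Pearson intervals of the YK share of reads. For genes with at least 10 reads, an exact binomial test, two-sided, against equal shares was adjusted by Benjamini-Hochberg; calls needed an adjusted p below 0.05 and a log2 ratio no smaller than 1 in size. That test compares 2 libraries and has no replicate check. It was tried on simulated counts that held counting error only, as the test itself assumes, so this trial does not back the calls. Alternatives were scalings by library totals, TMM (edgeR 4.0.16), median-of-ratios size factors and library totals without the 5 most abundant genes, other prior counts, limits and read windows, and the edgeR exact test at preset coefficients of variation. Leaving out overlapping loci was added after the data were seen. Named genes are Actin2, members with a hit, nearest to Actin2, with equal, most or fewest reads or at the rule's edges, and listed genes; relatives, neighbours and extremes were chosen after their values were seen. No ID was found in the RefSeq table (0 matches). No sequence was printed, and 1 member with a hit is not reported here. Calculations used Python 3.11.15 with scipy 1.17.1 and R 4.3.3.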

Additional observations from a re-analysis of the deposited data

How the results depend on the processing

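The number of stable genes was 117. It stayed between 111 and 132 under every scaling, both other prior counts, inclusion of XLOC loci and removal of overlapping loci. A steady number does not mean the same genes. Of the 117, 65 stayed with library totals, 100 with library totals without the 5 most abundant genes and 102 with TMM. The median-of-ratios factors leave the reads unchanged and so are no separate check. The number was 76, all among the 117, with a limit of 0.10, and 156, the 117 included, with a limit of 0.20. It was 177 in the window from 100 to below 200 reads and 32 in that from 500 to below 1000 reads. Those windows hold other genes by construction. The median log2 ratio of the stable genes was -0.02 as deposited, 0.14 with library totals and 0.039 with library totals without the 5 most abundant genes. Actin2 ranged from -0.14 (TMM) to 0.04 (library totals). The 664 genes called over the whole table became 200 and 36 with the edgeR exact test when the coefficient of variation was set to 0.2 and 0.4. With library totals 748 were called, 438 higher in YK and 310 higher in SH, against 275 and 389 as deposited. No stable gene was called under any scaling, but the ratio limit and the small size of the scaling shifts decide this in advance. With library totals, the largest shift, the log2 ratios of the stable genes reached at most 0.31, whereas a call needs 1. The absence of calls among them is therefore no check of their stability. No paired analysis was possible because each accession has a single library, and no replicate could be left out.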
